A study of Mus musculus with 18 samples.

Results

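Transcripts of 6 genes of the neural crest programme were followed through mesoderm-inducing differentiation of mouse embryonic stem cells (ESCs) of a parental and an Oct1 conditional knockout line. The genes, Tfap2a, Tfap2b, Sox9, Sox10, Ngfr and Ets1, were chosen by name for their known place in neural crest development. Earlier results of these data were known when they were chosen, so counts of called members are descriptions. All 6 are among the 25279 genes of the count table, and all 6 had enough counts to be among the 20267 genes tested. RNA had been sequenced in bulk from 18 libraries in 6 groups of 3: cells of the parental line at day 0, day 3 and day 6 of differentiation, and cells of the Oct1 conditional knockout (cKO) genotype at the same days. Pou2f1 encodes Oct1, a transcription factor with a POU domain. Day 0 cells were undifferentiated, and per the series' design text ESCs of both genotypes were plated on gelatin and taken through a published mesoderm protocol. The labels used here name neither the ESC strain, the Cre driver nor the number of clones behind either line, nor do they say whether libraries of 1 group came from separate cultures. The p-values therefore measure only the spread between these libraries.

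The neural crest is a population of cells that forms at the border of the neural plate and the surface ectoderm, leaves the neural tube and gives rise to peripheral neurons and glia, melanocytes and much of the skeleton of the face. Signals at the border first switch on factors such as the AP-2 proteins, Msx1 and Pax3, and these are followed by specifier genes such as Foxd3, Sox9, Sox10 and Ets1 that prepare the cells to delaminate and migrate. None of the 6 genes is used by the crest alone. AP-2 factors also act in surface ectoderm and trophoblast, Sox9 in cartilage and neural progenitors, and Ets1 in endothelium and blood cells, so RNA from bulk cultures does not say which cells held the transcript. A lower level in bulk RNA can mean fewer cells of a type or less RNA per cell, and these cannot be told apart here.

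Library totals ran from 13704958 to 26995420 counts. Pou2f1 RNA ran from 123 to 142 CPM (counts scaled to library size with TMM factors) in the 9 parental libraries and from 62.2 to 95.4 CPM in the 9 cKO libraries, and which exons were deleted was not checked. The labels call every library ESC, while the summed level of 8 ESC markers ran from 6797 to 8929 CPM at day 0 and from 54.7 to 241 CPM at day 6. At day 0, 12 fibroblast and feeder genes summed to 4802 to 4925 CPM in parental and 2808 to 3332 CPM in cKO libraries. At day 3 that sum was 375 to 407 and 302 to 320 CPM. By day 6 it was 3743 to 3922 CPM in parental libraries and 6408.5, 12353.5 and 6599 CPM in cKO replicates 1, 2 and 3. Of the 12, 6 were called lower and none higher in cKO at day 0, beside 16.5% and 15.1% of all tested genes. At day 6, 10 were called higher and none lower, beside 19.9% and 25.7%. Without cKO replicate 2 the same counts were called, beside 20.4% and 25.9%. The part of fibroblast and feeder cells in the results of the 6 genes was not tested. Library titles give the day 0 libraries another number prefix than those of days 3 and 6, so a change from day 0 to day 3 cannot be told apart from that prefix. Replicate 2 of the cKO day 6 group stood apart. Its counts differed from those of replicates 1 and 3 with a chi-square per degree of freedom of 106 and 96.9, against 5.84 between those other 2 libraries. Day 6 differences of the 6 genes and of the genes named from lists are therefore given with and without it.

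From day 3 to day 6 all 6 genes rose in both genotypes, where 32.6% of tested genes rose in parental and 31.3% in cKO cells (65.3% and 66.1% changed in either direction). Before day 3 they had no common course: 3 of the 6 were called in parental cells, Sox10 upwards and Tfap2a and Ngfr downwards, and 4 in cKO cells, Sox9 and Ets1 upwards and Tfap2a and Ngfr downwards, beside 75.5% and 76.0% of tested genes. Tfap2b, Sox9 and Ets1 were low at day 0 and day 3 and high at day 6 in both genotypes. Tfap2a was lowest at day 3 and higher on either side of it. Ngfr was the most abundant of the 6 per kilobase of exon at day 0, was lower at day 3, and was higher again at day 6. Sox10 stayed rare throughout. Divided by exon length, the parental day 6 means were 31.4 CPM per kilobase for Sox9, 11.1 for Ets1, 7.81 for Ngfr, 1.30 for Tfap2b, 0.698 for Tfap2a and 0.666 for Sox10. At day 0 the parental order began with Ngfr at 6.79 CPM per kilobase, and Ets1, the next, was at 0.653.

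**Figure D1:**
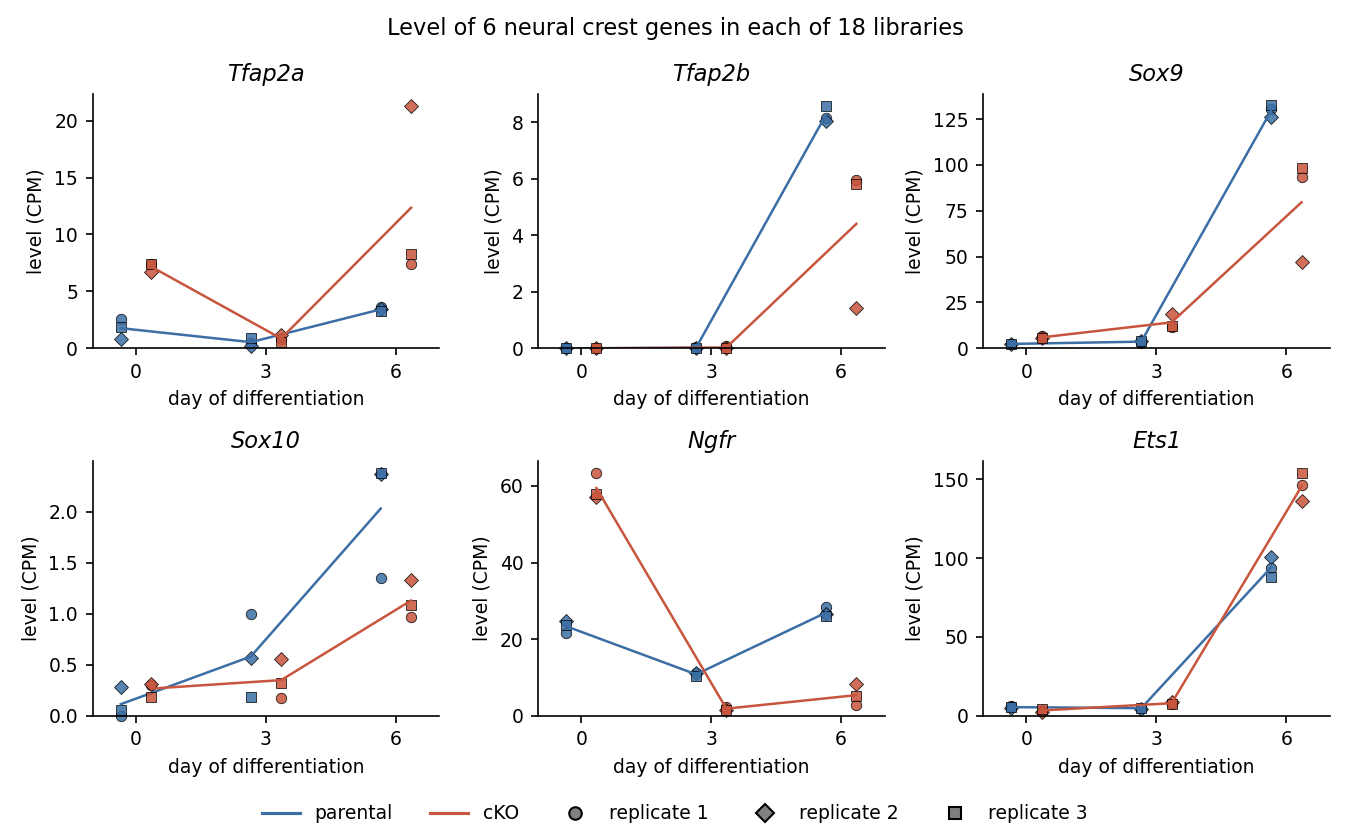
Level in CPM (vertical axis, starting at 0) of each of the 6 genes against day of differentiation (horizontal axis), for parental cells in blue and cKO cells in red. Each point is 1 library, with its shape giving the replicate, and lines join group means. Tfap2b, Sox9 and Ets1 climb between days 3 and 6, Ngfr crosses from higher in cKO at day 0 to lower at days 3 and 6, and the diamond at cKO day 6 stands apart for Tfap2a, Tfap2b and Sox9.

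Between genotypes, called genes are those with an adjusted p under 0.05 (edgeR quasi-likelihood test, Benjamini-Hochberg adjustment over all 20267 genes). At day 0, 4 of the 6 genes were called, with Tfap2a, Sox9 and Ngfr higher and Ets1 lower in cKO, beside 31.6% of all tested genes, 15.1% higher and 16.5% lower. At day 3, 3 of the 6 were called, with Sox9 and Ets1 higher and Ngfr lower, beside 15.7% of all tested genes, 6.32% higher and 9.39% lower. At day 6, 4 of the 6 were called, with Tfap2a and Ets1 higher and Sox9 and Ngfr lower, beside 45.6% of all tested genes, 19.9% higher and 25.7% lower. Without cKO day 6 replicate 2, Tfap2b was also called lower, and the share of all tested genes was 46.4%, with 20.4% higher and 25.9% lower. Libraries of the genotypes did not overlap for 4, 3 and 6 of the 6 genes at days 0, 3 and 6, beside 52.4%, 40.1% and 51.5% of all tested genes. The direction of 3 of the 6 genes was not the same at every day: Sox9 and Ngfr were called higher at day 0 and lower at day 6, and Ets1 was called lower at day 0 and higher at days 3 and 6.

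**Figure D2:**
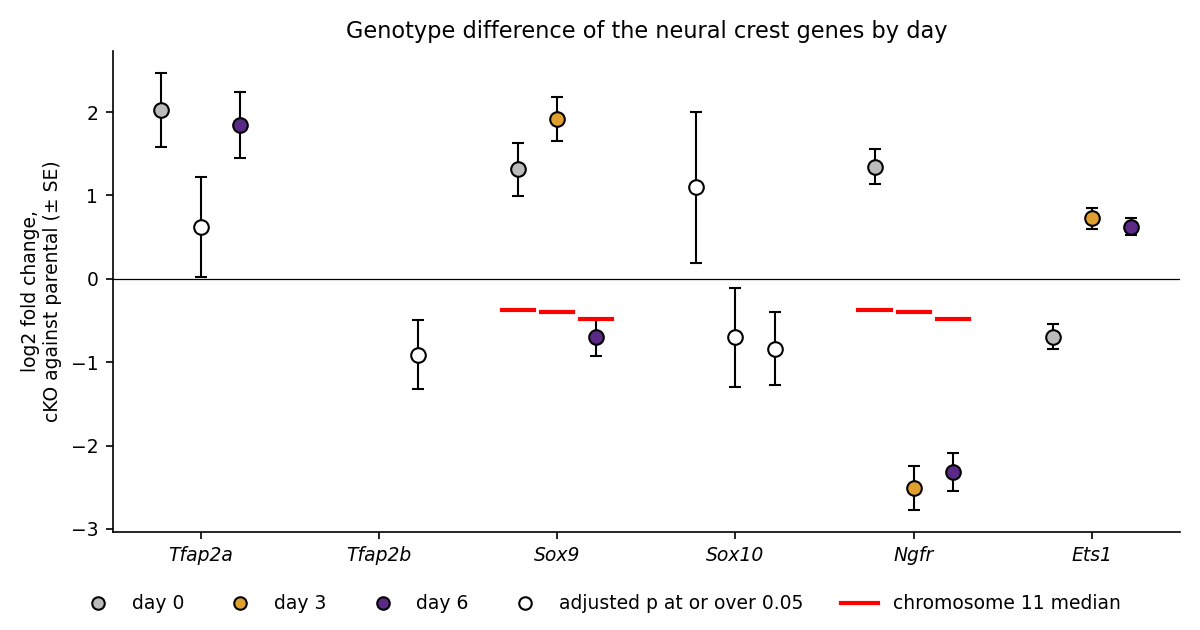
Log2 fold change of cKO against parental (vertical axis, bars are 1 SE of the fit over 18 libraries) for the 6 genes (horizontal axis) at days 0, 3 and 6. Open circles did not reach an adjusted p under 0.05, Tfap2b has no point at days 0 and 3, where it had at most 2 counts per group, and red bars give the median of chromosome 11 genes, on which Sox9 and Ngfr lie. Ngfr stands at 1.35, -2.51 and -2.32 at the 3 days.

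Tfap2a (ENSMUSG00000021359; GRCm38 chr13:40715302-40738376, minus strand) encodes AP-2 alpha, a factor needed at the neural plate border and for induction of the crest. In parental cells its level at day 0 was 2.56, 0.844 and 1.91 CPM in the 3 libraries, and in cKO cells it was 7.41, 6.66 and 7.44 CPM. All 3 cKO libraries were above all 3 parental ones, and the difference was called (log2 fold change 2.03 ± 0.45 SE, adjusted p = 0.00225). At day 3 the gene was lower in both, at 0.468, 0.226 and 0.932 CPM in parental and 0.832, 1.18 and 0.583 CPM in cKO libraries. Those ranges overlapped, and the difference of 0.63 ± 0.60 was not called (adjusted p = 0.560). At day 6 it was at 3.59, 3.42 and 3.26 CPM in parental cells and at 7.44, 21.3 and 8.26 CPM in cKO cells. The groups did not overlap, and replicate 2 of the cKO group was by far the highest of the 18 libraries. The day 6 difference was 1.85 ± 0.40 (adjusted p = 0.00127) and 1.19 without that library, where it was also called (adjusted p = 4.95e-05).

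Over time, Tfap2a fell from day 0 to day 3 in cKO cells by 3.06 ± 0.48 on the log2 scale (adjusted p = 2.36e-05) and in parental cells by 1.66 ± 0.55 (adjusted p = 0.0121). The parental call was lost without day 0 replicate 1 (adjusted p = 0.0670) or without day 3 replicate 2 (adjusted p = 0.0575). From day 3 to day 6 Tfap2a rose in both, by 2.63 ± 0.51 in parental cells (adjusted p = 0.000238) and by 3.85 ± 0.47 in cKO cells (adjusted p = 1.81e-06). Neither change was shown to differ between genotypes (adjusted p = 0.232 for day 0 to 3 and 0.235 for day 3 to 6). Tfap2a shares 380 exon bases with the antisense gene Gm26688, 265 with Gm47061 and 73 with Gm47067, and without a stated strand setting reads of such a pair cannot be told apart. Gm26688 held 0 to 13 counts per group and Gm47061 held 3 to 23, with 21 in parental and 23 in cKO cells at day 3, where Tfap2a held 39 and 49.

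Surface ectoderm also uses AP-2 alpha, and genes listed for surface ectoderm and epithelium were mostly higher in cKO cells at day 6, as Tfap2a was. At day 0, where Tfap2a was called higher too, 1 of 12 tested genes of that list was called higher and 3 lower. Their median log2 fold change was -0.21, and 15.1% of all tested genes were called higher and 16.5% lower. At day 3 none was called higher and 1 lower, beside 6.32% and 9.39% of all tested genes. The summed level of 13 surface ectoderm and epithelium genes at day 6 was 411 to 451 CPM in parental libraries and 1107, 5150 and 1115 CPM in cKO replicates 1, 2 and 3. Of the 12 that were tested, 10 were called higher and none lower in cKO, with and without replicate 2. Over all tested genes, 19.9% were called higher and 25.7% lower at day 6, and 20.4% and 25.9% without replicate 2. Gata3 rose by 2.13 ± 0.25 and the epithelial factor Grhl2 by 2.37 ± 0.27 on the log2 scale (adjusted p = 2.59e-06 and 5.01e-06), and by 1.75 and 1.80 without replicate 2. Trp63, which defines stratified epithelium, stayed between 0.50 and 1.83 CPM in the 6 day 6 libraries. It is a low gene of this list and was named after its values were seen. Trophoblast genes did not move one way. Their median log2 fold change over 11 genes was -0.07, and -0.48 without replicate 2, with 5 called higher and 4 lower in both cases. Their summed level was 239 to 268 CPM in parental libraries and 617, 3543 and 612 CPM in cKO replicates 1, 2 and 3. Gata3, called higher in cKO, is in this list and in that of surface ectoderm and epithelium, as are Krt8 and Krt18. The sums of these lists therefore share genes. Cdx2 was at 0.88 to 2.37 CPM and Elf5 at 0.24 to 0.89 CPM in the 6 day 6 libraries. Both are low genes of the trophoblast list and were named after their values were seen. The part of either tissue in the Tfap2a result was not tested.

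Tfap2b (ENSMUSG00000025927; chr1:19208914-19238576, plus strand) encodes AP-2 beta, the paralogue that follows AP-2 alpha in the crest and is needed in sympathetic neurons and the kidney. It had 0 counts in all 6 day 0 libraries. A floor of 3 counts over a group stands at 0.0600 CPM in parental and 0.0712 CPM in cKO cells at that day. At day 3 it had 1 count in the parental and 2 counts in the cKO group. At day 6 it was at 8.15, 8.05 and 8.58 CPM in parental cells and at 5.96, 1.43 and 5.81 CPM in cKO cells. The ratio of day 6 to day 3 was 579 in parental cells, from 568 counts against 1, with an exact 95% interval of 103 to 22891. In cKO cells it was 127, from 283 counts against 2, with an interval of 34.8 to 1052. These intervals cover counting error only. Both rises were called (adjusted p = 8.08e-07 and 7.32e-06).

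All 3 cKO libraries were below all 3 parental ones at day 6, yet the difference of -0.91 ± 0.41 was not called (adjusted p = 0.0883). Replicate 2 alone was at -2.53 against the parental mean, while replicates 1 and 3 were at -0.47 and -0.51. Without replicate 2 the difference was smaller, -0.49, and was called (adjusted p = 0.0349); without replicate 1 it was -1.19 and was also called (adjusted p = 0.0451). Of the other AP-2 genes, Tfap2c was called lower in cKO at every day, by 1.40 ± 0.18, 1.90 ± 0.20 and 0.79 ± 0.19 on the log2 scale (adjusted p = 1.43e-05, 4.24e-06 and 0.00220), and by 1.17 at day 6 without cKO replicate 2. Its means were 60.2, 17.3 and 17.6 CPM in parental and 22.8, 4.66 and 10.2 CPM in cKO cells at days 0, 3 and 6. Tfap2c and Tfap2a thus had called differences of opposite sign at days 0 and 6.

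Promoter sequence was found in the RefSeq table (GRCm38.p6) for 3 of the 6 genes: Tfap2a, with 2 annotated starts, Tfap2b and Ngfr. The 250 bases before a start are given 5′ to 3′ on the gene's strand for these 3, since the POU factor Oct1 is known to bind an octamer, ATGCNAAT. Capitals mark that motif. It was searched on both strands of the 300 bases that reach from 250 before to 50 after each start, as were the strict octamer ATGCAAAT that it contains, the Smad palindrome GTCTAGAC, the TCF/LEF letters CTTTGAT, the AP-2 motif GCCNNNGGC and the Sox letters AACAAT. One match came up in the 4 windows, ATGCTAAT at chr13:40734034-40734041, which begins 246 bases before 1 of the 2 Tfap2a starts. Of 32851 promoters in the table, 3.15% held ATGCNAAT, 1.74% the strict octamer, 0.213% the Smad palindrome, 3.73% the TCF/LEF letters, 16.6% the AP-2 motif and 10.7% the Sox letters. A match is a stretch of letters and not a measured site.
Tfap2a, chr13:40733796-40734045, minus strand: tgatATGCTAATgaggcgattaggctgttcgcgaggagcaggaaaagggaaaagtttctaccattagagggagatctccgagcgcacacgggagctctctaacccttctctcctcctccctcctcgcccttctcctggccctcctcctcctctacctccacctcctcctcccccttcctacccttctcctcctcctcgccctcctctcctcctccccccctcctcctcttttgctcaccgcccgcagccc
Tfap2b, chr1:19211804-19212053, plus strand: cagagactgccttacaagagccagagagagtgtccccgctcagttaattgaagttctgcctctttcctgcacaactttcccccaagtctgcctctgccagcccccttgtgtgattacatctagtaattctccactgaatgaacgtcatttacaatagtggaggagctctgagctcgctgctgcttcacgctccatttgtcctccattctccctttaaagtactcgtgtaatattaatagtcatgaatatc
Ngfr, chr11:95587699-95587948, minus strand: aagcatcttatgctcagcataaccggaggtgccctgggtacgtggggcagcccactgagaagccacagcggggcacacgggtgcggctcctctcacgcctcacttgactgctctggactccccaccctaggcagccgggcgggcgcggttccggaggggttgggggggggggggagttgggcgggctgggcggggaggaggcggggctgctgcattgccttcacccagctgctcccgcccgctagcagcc

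Sox9 (ENSMUSG00000000567; chr11:112782224-112787760, plus strand) and Sox10 (ENSMUSG00000033006; chr15:79154908-79165240, minus strand) encode SoxE factors. Sox9 acts first, in premigratory crest, and also drives cartilage formation, while Sox10 maintains migrating crest and its glial and pigment lineages. Sox9 was higher in cKO cells at days 0 and 3 and lower at day 6. At day 0 it was at 2.56, 2.53 and 2.10 CPM in parental and 6.51, 5.72 and 5.69 CPM in cKO libraries. That difference was 1.31 ± 0.32 (adjusted p = 0.00526). At day 3 it was at 2.75, 4.14 and 4.07 CPM in parental and 11.6, 18.5 and 12.3 CPM in cKO libraries, a difference of 1.92 ± 0.26 (adjusted p = 0.000139). The groups were fully separated at both days. By day 6 the parental libraries had overtaken, at 130.4, 126 and 132 CPM against 93.5, 47.3 and 98.2 CPM in cKO cells, again with no overlap. The day 6 difference was -0.70 ± 0.22 (adjusted p = 0.0158) and -0.44 ± 0.11 without cKO replicate 2 (adjusted p = 0.00191). It was not called when the 6 day 6 libraries were fitted alone (-0.64, adjusted p = 0.0865).

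The rise of Sox9 from day 3 to day 6 was 5.12 ± 0.27 on the log2 scale in parental cells (adjusted p = 2.35e-10) and 2.50 ± 0.24 in cKO cells (adjusted p = 1.85e-07). The difference between these changes was itself called, at -2.63 ± 0.34 (adjusted p = 8.30e-05), as were those of 26.0% of tested genes. From day 0 to day 3 Sox9 rose in cKO cells by 1.24 ± 0.26 (adjusted p = 0.000597), while the parental change of 0.63 ± 0.32 was not called (adjusted p = 0.0859). The difference between those 2 changes was not called either (0.61 ± 0.42, adjusted p = 0.366). Other users of Sox9 moved in both directions at day 6. Of 10 cartilage and sclerotome genes, 6 were called higher and 2 lower in cKO (7 and 3 without cKO replicate 2), and their summed level was 214 to 224 CPM in parental and 313 to 422 CPM in cKO libraries. The median log2 fold change of that list was 1.60, and 1.64 without cKO replicate 2, beside -0.09 and -0.08 over all tested genes. Matn1 had no count in parental day 6 libraries, and Acan, the cartilage proteoglycan, was at 0.32 to 1.56 CPM in all 6 day 6 libraries. Both are low genes of the list, named after their values were seen. Over all tested genes, 19.9% were called higher and 25.7% lower at day 6. Of 12 neural progenitor genes, 2 were called higher and 7 lower (2 and 8 without cKO replicate 2), and their sum was 1283 to 1375 CPM in parental and 577 to 657 CPM in cKO libraries. The part of either in the Sox9 result was not tested.

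Sox10 was the rarest of the 6 per kilobase at day 6 in both genotypes. It had 6, 37 and 140 counts in all at days 0, 3 and 6 in the parental groups, and 11, 19 and 73 in the cKO groups. At day 6 it was at 1.35, 2.37 and 2.38 CPM in parental and 0.971, 1.34 and 1.09 CPM in cKO libraries. The highest cKO library lay just under the lowest parental one, and the difference of -0.84 ± 0.43 was not called (adjusted p = 0.125), nor was that of -0.97 ± 0.41 without cKO replicate 2 (adjusted p = 0.0504). Differences at day 0 (1.097 ± 0.902) and day 3 (-0.70 ± 0.59) were not called, with adjusted p = 0.400 and 0.500 respectively, so at these depths no difference was detectable. Sox10 rose from day 3 to day 6 in both genotypes, by 1.88 ± 0.47 in parental cells (adjusted p = 0.00187) and by 1.74 ± 0.55 in cKO cells (adjusted p = 0.00918). The cKO call was lost without day 3 replicate 1 (1.38, adjusted p = 0.0568). The parental rise from day 0 to day 3 (2.14 ± 0.74, adjusted p = 0.0142) was lost when day 0 replicate 1, day 0 replicate 3 or day 3 replicate 1 was left out, at adjusted p = 0.0617, 0.0549 and 0.0725.

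Ets1 (ENSMUSG00000032035; chr9:32636221-32757820, plus strand) encodes an ETS-domain factor that takes part in the delamination of cranial crest and in endothelial and lymphoid development. Its level was steady between replicates at day 6, while the cKO libraries of day 0 ran from 2.59 to 4.19 CPM. Ets1 was the member whose genotype difference was least altered by cKO day 6 replicate 2. At day 0 it was at 6.11, 5.01 and 5.50 CPM in parental and 3.37, 2.59 and 4.19 CPM in cKO libraries. It was lower in cKO by 0.69 ± 0.15 on the log2 scale (adjusted p = 0.00116). At day 3 it was at 5.20, 4.40 and 4.92 CPM in parental and 7.71, 8.92 and 7.37 CPM in cKO libraries, higher by 0.73 ± 0.12 (adjusted p = 0.000439). At day 6 it reached 93.6, 100.8 and 88.0 CPM in parental and 146, 136 and 154 CPM in cKO cells, higher by 0.63 ± 0.10 (adjusted p = 7.15e-05) and by 0.67 ± 0.08 without cKO replicate 2. The groups did not overlap at any of the 3 days. Ets1 rose from day 3 to day 6 by 4.29 ± 0.12 in parental and 4.19 ± 0.12 in cKO cells (adjusted p = 1.75e-15 and 1.51e-15). Those 2 rises differed by -0.10 ± 0.16 (adjusted p = 0.694). From day 0 to day 3 it rose in cKO cells (1.22 ± 0.14, adjusted p = 2.09e-07), the parental change of -0.20 ± 0.13 was not called (adjusted p = 0.178), and the difference between these changes was called (1.42 ± 0.19, adjusted p = 4.40e-05).

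Other ETS genes were called mostly higher in cKO cells at day 6. Of 16 tested, 9 were called higher and none lower, with a median log2 fold change of 0.54 beside -0.09 over all tested genes; without cKO replicate 2, 11 were called higher and none lower. Etv5, Etv1, Elk3 and Elf1 rose by 0.94 ± 0.08, 0.81 ± 0.10, 0.81 ± 0.11 and 1.04 ± 0.17 (adjusted p = 5.86e-08, 4.03e-06, 9.01e-06 and 8.45e-05), and by 0.90, 0.88, 0.73 and 0.67 without that library. At day 0, 5 were called higher and 3 lower, led by Etv4, a chromosome 11 gene, at 2.37 ± 0.13 (adjusted p = 2.78e-10). At day 3, 3 were called higher and 2 lower. Of all tested genes, 15.1% were called higher and 16.5% lower at day 0. The shares were 6.32% and 9.39% at day 3, and 19.9% and 25.7% at day 6. Endothelium and blood genes, in which Ets1 also acts, summed to 65.3 to 79.7 CPM in parental and 137 to 170 CPM in cKO libraries at day 6, with 8 of 14 called higher and 2 lower, and 12 higher and 2 lower without cKO replicate 2. At day 3, where Ets1 was called higher, 1 of the 14 was called higher and 2 lower. The sum at day 3 was 41.2 to 45.1 CPM in parental and 31.2 to 32.4 CPM in cKO libraries. At day 0, where Ets1 was called lower, 2 were called higher and 2 lower. The day 0 sum was 330 to 337 CPM in parental and 172 to 184 CPM in cKO libraries. Erg, Fli1 and Etv2 are in both this endothelium and blood list and that of ETS genes. The part of endothelium and blood in the Ets1 result was not tested.

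Ngfr (ENSMUSG00000000120; chr11:95568818-95587735, minus strand) encodes the p75 neurotrophin receptor, a surface protein by which migrating crest cells are often sorted. Ngfr had the largest genotype differences of the 6 at days 3 and 6. At day 0 it was at 21.7, 24.9 and 23.6 CPM in parental and 63.4, 57.1 and 57.9 CPM in cKO libraries, higher in cKO by 1.35 ± 0.21 (adjusted p = 0.000116). At day 3 it was at 11.05, 11.1 and 10.3 CPM in parental and 2.37, 1.61 and 1.64 CPM in cKO libraries, lower by 2.51 ± 0.26 (adjusted p = 5.94e-06). At day 6 it was at 28.4, 26.4 and 25.9 CPM in parental and 2.87, 8.29 and 5.05 CPM in cKO libraries, lower by 2.32 ± 0.23 (adjusted p = 8.11e-07) and by 2.77 ± 0.14 without cKO replicate 2. No cKO library overlapped the parental range at any day. The order of the groups, from low to high, was cKO day 3, cKO day 6, parental day 3, parental day 0, parental day 6 and cKO day 0, and no neighbours in that order overlapped.

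Between days 0 and 3 Ngfr fell by 4.96 ± 0.26 on the log2 scale in cKO cells (adjusted p = 3.01e-11) and by 1.11 ± 0.22 in parental cells (adjusted p = 0.000196), and the difference between these changes was called (-3.85 ± 0.34, adjusted p = 9.32e-07), as were those of 18.6% of tested genes. Between days 3 and 6 it rose by 1.32 ± 0.21 in parental cells (adjusted p = 4.27e-05) and by 1.505 ± 0.275 in cKO cells (adjusted p = 0.000126). Those 2 rises differed by 0.19 ± 0.35 (adjusted p = 0.733). Without cKO day 6 replicate 2 the cKO rise was 1.04, and the difference turned to -0.27 and was not called either. At day 6 the parental libraries lay just above those of day 0, while the cKO libraries lay far below theirs.

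Genes whose products bind or act with the p75 receptor were read alongside. Of 13 neurotrophin, receptor and partner genes, none was called higher and 2 lower in cKO at day 0, 2 higher and none lower at day 3, and 4 higher and 3 lower at day 6, where leaving out cKO replicate 2 gave 6 higher and 2 lower. Their median log2 fold change at day 6 was 0.04, beside -0.09 over all tested genes. Of all tested genes, 15.1% were called higher and 16.5% lower at day 0. The shares were 6.32% and 9.39% at day 3, and 19.9% and 25.7% at day 6. The ligand Bdnf rose at day 3 (1.38 ± 0.27, adjusted p = 0.00120; 5.56 against 2.09 CPM) and at day 6 (1.15 ± 0.23, adjusted p = 0.000560; 19.5 against 8.79 CPM), where it was 0.72 without cKO replicate 2. Its receptor Ntrk2 fell at day 6 by 1.74 ± 0.27 (adjusted p = 5.42e-05; 5.56 against 18.6 CPM), and by 1.37 without that library. The co-receptor Sort1 fell at day 0 by 0.56 ± 0.08 (adjusted p = 1.63e-05) and rose at day 3 by 0.46 ± 0.07 (adjusted p = 8.85e-05).

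Ngfr and Sox9 both lie on chromosome 11, whose genes as a whole were lower in cKO cells at every day. Over the 921 tested genes of that chromosome with a mean of at least 5 CPM, the median log2 fold change was -0.38, -0.39 and -0.49 at days 0, 3 and 6, beside 0.02, 0.03 and -0.03 over 10461 genes elsewhere. Of the 921, 58.4%, 61.3% and 71.4% were called lower. Measured from the chromosome's median, Ngfr stood 1.72 above it at day 0, and 2.11 and 1.83 below it at days 3 and 6. Among the other 920 genes, 8 were further up than Ngfr at day 0, 5 further down at day 3 and 16 further down at day 6. When only chromosome 11 genes were fitted, so that values are relative to that chromosome, Ngfr differed by 1.71 ± 0.21, -2.14 ± 0.26 and -1.89 ± 0.22, and all 3 were called (adjusted p = 7.84e-06, 3.00e-05 and 4.38e-06). The 20 genes nearest to Ngfr among those 920, within 0.724 Mb, had medians of -0.06, -0.42 and -0.62. They ranged from -1.80 to 0.83 at day 0, from -4.06 to 0.48 at day 3 and from -3.78 to 1.17 at day 6. At days 3 and 6 the lowest of these neighbours thus lay further down than Ngfr.

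Sox9 gave another picture at day 6. It stood 1.69 and 2.31 above the chromosome median at days 0 and 3, where 9 and 0 of the other 920 genes were further up. At day 6 it was 0.22 below the median, with 286 genes further down and 634 further up, and 0.05 above it without cKO replicate 2. Relative to chromosome 11, its differences at days 0 and 3 were called (1.67 ± 0.32 and 2.28 ± 0.26, adjusted p = 0.000704 and 2.32e-05), and at day 6 the call was lost (-0.28 ± 0.21, adjusted p = 0.292). The 20 genes nearest to Sox9 among those 920, within 2.64 Mb, had medians of -0.22, -0.57 and -0.64. Their ranges were -1.50 to 0.84, -1.40 to 0.08 and -1.18 to 0.29. A lower Sox9 level at day 6 was thus not shown to differ from that of its chromosome, while the higher levels at days 0 and 3 and all 3 Ngfr differences were called beyond it.

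**Figure D3:**
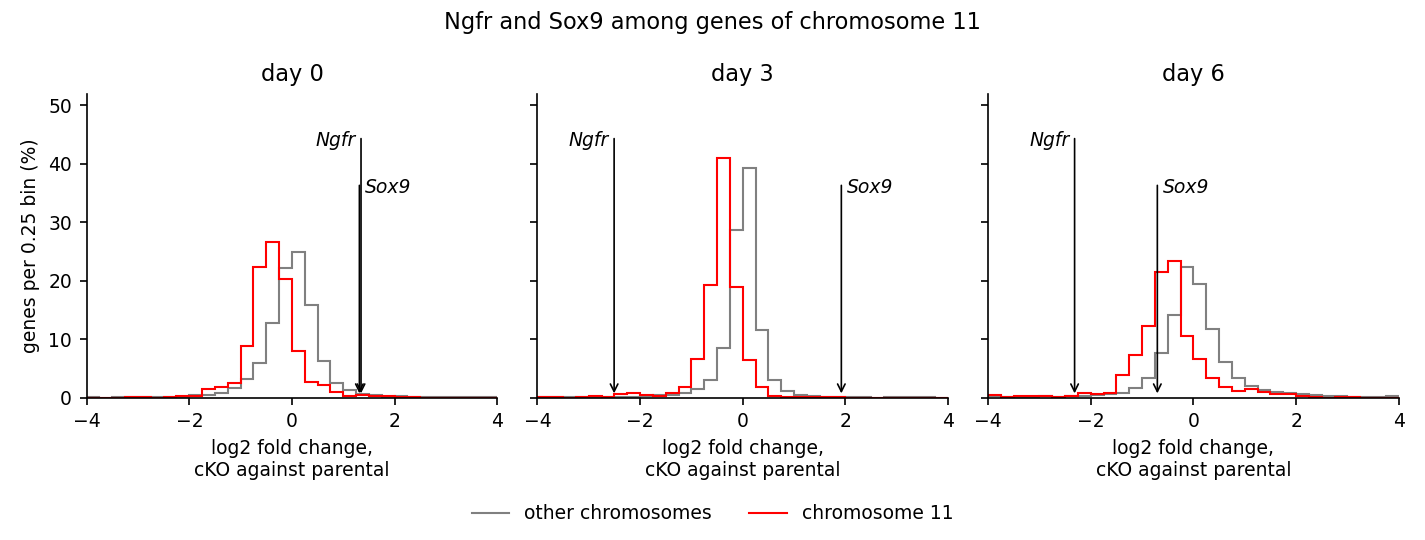
Distribution of the log2 fold change of cKO against parental (horizontal axis, in bins of 0.25, with values beyond 4 in the end bins) at each day, as the percentage of genes per bin (vertical axis), for the 921 chromosome 11 genes in red and the 10461 other genes in grey, all with a mean of at least 5 CPM. Arrows mark Ngfr and Sox9. The red distribution sits to the left of the grey one at each day, with Ngfr to its right at day 0 and to its left at days 3 and 6, and Sox9 inside it at day 6.

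The wider neural crest programme was read from lists chosen with earlier results of these data known. Of 14 tested neural plate border genes, 1 was called higher and 2 lower in cKO at day 0, 2 higher and 3 lower at day 3, and 1 higher and 7 lower at day 6. The day 6 median was -0.51, beside -0.09 over all tested genes. Without cKO replicate 2 it was -0.34, with 3 higher and 7 lower. Among all tested genes, 15.1% were called higher and 16.5% lower at day 0. The shares were 6.32% and 9.39% at day 3, and 19.9% and 25.7% at day 6. Pax7 fell by 3.48 ± 0.34 (adjusted p = 1.05e-06), from 55.7 CPM in parental to 4.997 CPM in cKO cells, and Msx1 by 2.76 ± 0.34 (adjusted p = 3.81e-06), from 8.02 to 1.18 CPM. Without cKO replicate 2 these were -3.05 and -2.33. Pax7 and Msx1 are both border factors that act upstream of the specifiers. Gbx2 was called at all 3 days with changing sign, at 0.52 ± 0.19, -0.73 ± 0.18 and -1.19 ± 0.21 (adjusted p = 0.0474, 0.00976 and 0.000268), and at -0.86 at day 6 without cKO replicate 2.

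Of 23 specifier and migration genes, 4 were called higher and 2 lower at day 0, 5 higher and none lower at day 3, and 5 higher and 6 lower at day 6. At day 6 the median was -0.32, and without cKO replicate 2 it was -0.07, with 9 higher and 6 lower. Among all tested genes, 15.1% were called higher and 16.5% lower at day 0. The shares were 6.32% and 9.39% at day 3, and 19.9% and 25.7% at day 6. Foxd3, a specifier that also acts in pluripotent cells, was called higher at day 3 (2.38 ± 0.21, adjusted p = 3.82e-07), with a mean of 12.9 CPM in cKO cells beside 2.51 CPM in parental cells. By day 6 it was rare in both, with no library over 0.56 CPM. Itga4, the integrin alpha 4 subunit that migrating crest uses, fell at day 6 by 2.05 ± 0.20 (adjusted p = 2.18e-07; 6.61 against 27.4 CPM), while Snai1, a driver of epithelial to mesenchymal transition, rose by 1.03 ± 0.17 (adjusted p = 6.63e-05; 21.2 against 10.4 CPM). Without cKO replicate 2 these were -1.87 and 1.25. Ednrb, the endothelin receptor of crest and melanoblasts, is named here after its values were seen. It was at 144, 134 and 141 CPM in parental and 42.9, 10.4 and 43.0 CPM in cKO libraries at day 6, lower by 2.12 ± 0.36 (adjusted p = 0.000361) and by 1.70 without replicate 2, its lowest library.

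Of 9 tested genes of crest derivatives, 1 was called higher at day 0, 1 lower at day 3, and none higher and 3 lower at day 6 (4 lower without cKO replicate 2). Among them was Phox2a, an autonomic neuron factor, at a log2 fold change of -1.68 ± 0.31 (adjusted p = 0.000259), and of -1.78 without cKO replicate 2. Over all tested genes, 31.6%, 15.7% and 45.6% were called in either direction at days 0, 3 and 6. From day 3 to day 6 the specifier and migration genes were mostly called higher, with 15 of 23 higher and 4 lower in parental cells and 16 higher and 3 lower in cKO cells, while Sox10 at most reached 2.38 CPM and Foxd3 0.56 CPM in a day 6 library. Over that interval, 32.6% of all tested genes were called higher in parental and 31.3% in cKO cells.

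**Figure D4:**
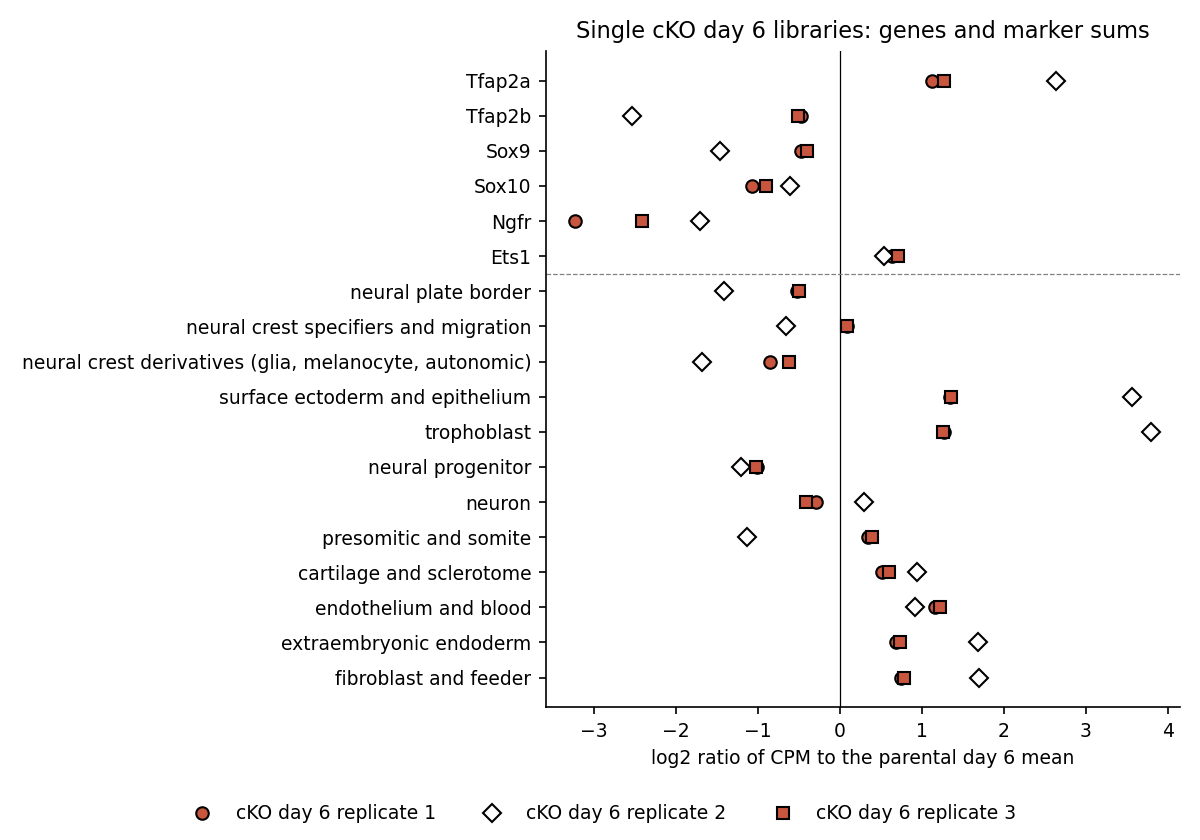
Log2 ratio of each cKO day 6 library to the parental day 6 mean (horizontal axis, CPM) for the 6 genes, above the dashed line, and for the summed CPM of 12 marker lists, below it. Filled symbols are cKO replicates 1 and 3 and open diamonds are replicate 2. Replicate 2 stands apart for Tfap2a at 2.64, Tfap2b at -2.53 and Sox9 at -1.46, and close to the others for Ets1. It also stands apart for surface ectoderm and epithelium at 3.57 and for trophoblast at 3.79, lists that share Gata3, Krt8 and Krt18.

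The 6 genes fell into different company when their patterns were set beside those of other tested genes. Likeness was Pearson's r of log2 CPM over 18 libraries that share 6 groups, and is given as a description. It was ranked among 13398 tested genes averaging 1 CPM or more, with genes of systematic symbol such as Gm or Rik left out. The genes most like Tfap2b were Nedd9, Dlk1 and Meis1, at 0.991, 0.990 and 0.989. Those most like Ets1 were Klc1, Jun and Cdc42ep1, at 0.994, 0.992 and 0.989. For Sox9 they were Itsn1, Bahcc1 and Cacfd1, at 0.980, 0.977 and 0.975. For Tfap2a they were Ube2r2, Ets2 and Tln1, at 0.9497, 0.946 and 0.940, and for Ngfr they were Tmem229b, Cyp4f13 and Tbc1d23, at 0.959, 0.936 and 0.934. For Sox10, the rarest, they were Pcdhgb7, Dnajb14 and Specc1l, at 0.914, 0.912 and 0.906. Among the 6 themselves, Tfap2b had r of 0.956 with Ets1 and 0.933 with Sox9, and Sox9 had 0.922 with Ets1. Ngfr had -0.22 with Ets1 and -0.21 with Sox9.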

How the data were processed

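RNA was sequenced in bulk from 18 libraries of mouse cells, 3 in each of 6 groups set by genotype and day. The authors deposited a table of raw, unnormalized read counts for each Ensembl gene in each library. Per the submitters' processing notes, Novoalign, DESeq2 1.10.0 and the builds mm10 and GRCm38 were used; the counter, the annotation and the strand handling are not stated there. From the counts, genes passing filterByExpr (20267 of 25279) were scaled with TMM factors and fitted as group means over 18 libraries with the robust quasi-likelihood method of edgeR 4.0.16 in R 4.3.3, with a biological coefficient of variation of 13.5%. Contrasts were tested two-sided with Benjamini-Hochberg adjustment over all genes tested, and called at 0.05. Intervals and floors cover counting error only. Positions and exon lengths came from GENCODE M21, which held 25221 of the gene IDs, and promoters from RefSeq. Figures and counts over lists were made in Python 3.11.15. Alternatives were RLE factors, total counts, other low-count filters, DESeq2 1.42.0, a fit of the compared libraries alone, fits by chromosome and each library left out; leaving out cKO day 6 replicate 2 for lists, chromosome 11 positions and likeness was added after seeing the data. The steps were tested on simulated data. Members and lists were chosen with earlier results of these data known. Genes named from lists were, per comparison, the first 4 called by adjusted p and the 2 most abundant among those not called. Marker levels given in ranges beside a result, and Ednrb, were chosen after their values were seen. Some list genes are not reported here.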

Additional observations from a re-analysis of the deposited data

Results flagged for a closer look

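For 3 of the 6 genes, the change over time differed between genotypes by a test of the difference itself (edgeR quasi-likelihood, Benjamini-Hochberg adjusted over all genes tested). Ngfr fell further from day 0 to day 3 in cKO than in parental cells, by -3.85 ± 0.34 (SE) on the log2 scale (adjusted p = 9.32e-07), and it was 1 of the 18.6% of tested genes called for this difference. Ets1 differed in the same interval by 1.42 ± 0.19 (adjusted p = 4.40e-05), with a called rise in cKO cells and no called change in parental cells. Sox9 rose less in cKO cells from day 3 to day 6, by -2.63 ± 0.34 (adjusted p = 8.30e-05), where 26.0% of tested genes were called. In both intervals, all 3 libraries of each group enter the difference, and leaving out any 1 library kept all 3 calls.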

How the results depend on the processing

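No paired analysis was possible because the replicate numbers follow accession order and the numbers in the library titles are not shared between groups. For Tfap2b at day 6, leaving out 1 library in turn gave -1.19 to -0.49. Sox9 at day 6 lost its call with the libraries of the comparison alone (-0.64, adjusted p = 0.0865) and relative to chromosome 11 (-0.28, adjusted p = 0.292). The Tfap2a difference of the day 0 to 3 changes was called with those libraries alone (-1.44, adjusted p = 0.0495). Leaving out 1 library turned the sign of 3 values that were not called: the Sox10 change from day 0 to 3 in cKO (-0.12 to 0.70), the Sox10 difference of the day 3 to 6 changes (-0.68 to 0.32) and that of Ngfr (-0.27 to 0.49). The causes were not tested. The parental Sox9 change from day 0 to 3 was called with DESeq2 (0.59), the compared libraries alone (0.67), chromosome 11 alone (0.90) and without day 3 replicate 1 (0.77), and that of Ets1 with no low-count filter (-0.35). Of the members, 4 were called at day 0, 3 at day 3 and 3 to 5 at day 6 under every alternative run. Over all genes, fitting the compared libraries alone called 2859 higher and 3015 lower at day 3, against 1281 and 1904, and 2860 and 2861 at day 6, against 4036 and 5202. Total-count scaling moved the median change of all genes from day 3 to 6 in parental cells from 0 to 0.17. Sox10 has too few counts at days 0 and 3 to settle a difference. Sox10 at day 0 could not be fitted with the compared libraries alone, where it did not pass the filter, and Tfap2b gives no genotype difference before day 6.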
